A study of Mus musculus with 9 samples.

Results

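The genes described here carry signals from the growth hormone, leptin and interleukin-6 type receptors in the liver, and they were chosen by name as receptors, target genes, signal transducers and feedback genes of these receptors. The set holds 10 of the 19329 genes in the deposited tables, namely *Ghr*, *Lepr*, *Igf1*, *Igfals*, *Socs2*, *Socs3*, *Cish*, *Stat3*, *Stat5b* and *Bcl6*. All 10 were among the 12091 genes that passed the filter on low counts. They were measured by RNA sequencing in the livers of 9 C57BL/6J mice, an inbred laboratory strain without an engineered allele in the labels. In 4 mice a high-sucrose diet (HSD) replaced standard chow when they were 8 weeks old and was kept for 3 weeks, while 5 mice stayed on chow (Chow), and all livers were taken at 11 weeks. Every library is of its own mouse, and the sources used here do not state the sex.

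Growth hormone reaches hepatocytes from the blood and binds its receptor, on which the kinase JAK2 phosphorylates STAT5 proteins. These enter the nucleus and drive *Igf1*, *Igfals* and genes of feedback inhibitors such as *Socs2* and *Cish*, while the repressor BCL6 binds many of the same sites and opposes STAT5. The leptin receptor and the interleukin-6 type receptors signal mainly through STAT3, which drives *Socs3* and the acute phase genes of the liver.

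The palindrome TTCNNNGAA, the core of the sites that STAT5 and STAT3 bind, was searched in RefSeq promoters of GRCm38.p6, each running from 250 bases before to 50 bases after a start site. The motif reads the same on both strands, and a match is only a match of letters. Of the 10 genes, 9 had promoter entries, 15 in all, and *Socs2* had none. The motif stood in entries of *Igfals*, *Socs3*, *Cish* and *Bcl6*, with 9 matches in 6 of the 15 entries, whereas 8.3% of all 32851 promoters of the same length held it. The matches are shown with 10 bases on each side because they lie at genes that this signalling is known to control, with the 9 letters of the motif in capitals.
Igfals, entry 1: gatctataatTTCTCAGAAaagaggctga
Igfals, entry 2: ctgccaggtgTTCCTAGAAgaggccctgg
Socs3: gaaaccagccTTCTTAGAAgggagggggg
Cish, match 1: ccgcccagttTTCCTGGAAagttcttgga
Cish, match 2: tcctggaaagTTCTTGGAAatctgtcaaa
Bcl6, entry 1: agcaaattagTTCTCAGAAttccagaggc
Bcl6, entry 2, match 1: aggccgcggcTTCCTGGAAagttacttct
Bcl6, entry 2, match 2: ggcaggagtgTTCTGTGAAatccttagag
Bcl6, entry 2, match 3: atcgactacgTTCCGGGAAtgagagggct
Distances below are of the first letter of the motif, and coordinates are of the whole printed stretch of 29 bases. The *Igfals* matches began 236 bases before the start site of the first entry (chr17:24877598-24877626, plus strand) and 58 bases before that of the second (chr17:24878163-24878191, plus strand). The *Socs3* match began 154 bases before its start site (chr11:117969502-117969530, minus strand). Both *Cish* matches lay in the first bases after the start site (chr9:107296649-107296677 and chr9:107296660-107296688, plus strand). At *Bcl6* the matches lay before the start site of the first entry (chr16:23988952-23988980, minus strand) and began 168, 122 and 88 bases before that of the second (chr16:23981433-23981461, chr16:23981387-23981415 and chr16:23981353-23981381, minus strand). No entry of *Lepr*, *Ghr*, *Igf1*, *Stat3* or *Stat5b* held these letters, which says nothing of sites elsewhere.

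The libraries held 14040723 to 24825322 estimated counts in HSD livers and 12769668 to 25913869 in Chow livers. With edgeR, 416 of 12091 genes (3.44%) were higher and 391 (3.23%) were lower in HSD livers at an adjusted p under 0.05, and 569 were higher and 254 lower when library totals replaced TMM factors. Without regard to a test, every HSD liver stood above every Chow liver in 706 genes (5.84%) and below in 666 genes (5.51%). The library of Chow 1 stood apart by its acute phase genes, whose mean log2 CPM, centred over the 9 livers, was 2.98, against -0.46 to 0.36 in the other Chow livers. Chow 1 and Chow 3 also differed from the other Chow livers in their clock genes, as the log2 ratio of *Arntl* to *Dbp* was -1.93 to -4.48 in HSD livers, -3.27 and -1.56 in Chow 1 and Chow 3, and -6.04 to -6.41 in the other Chow livers. Hepatocyte markers were abundant in every liver, with 78863 to 104174 TPM in HSD livers and 45466 to 96796 TPM in Chow livers summed over 9 genes.

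Of the 10 genes, 1 was higher in HSD livers (*Lepr*, against 3.44% of all genes tested) and 1 was lower (*Igfals*, against 3.23%), and the other 8 did not pass the test. The diets did not overlap in *Lepr*, with all HSD livers above (5.84% of all genes), and in *Igfals*, with all HSD livers below (5.51%). With 10 genes such counts cannot be set apart from the shares of all genes. The median log2 fold change was -0.15, against -0.004 over all genes tested, and 3 estimates were above 0 and 7 below. At an unadjusted p under 0.05, edgeR called 3 of the 10 genes and 2861 of the 12091.

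**Figure D1:**
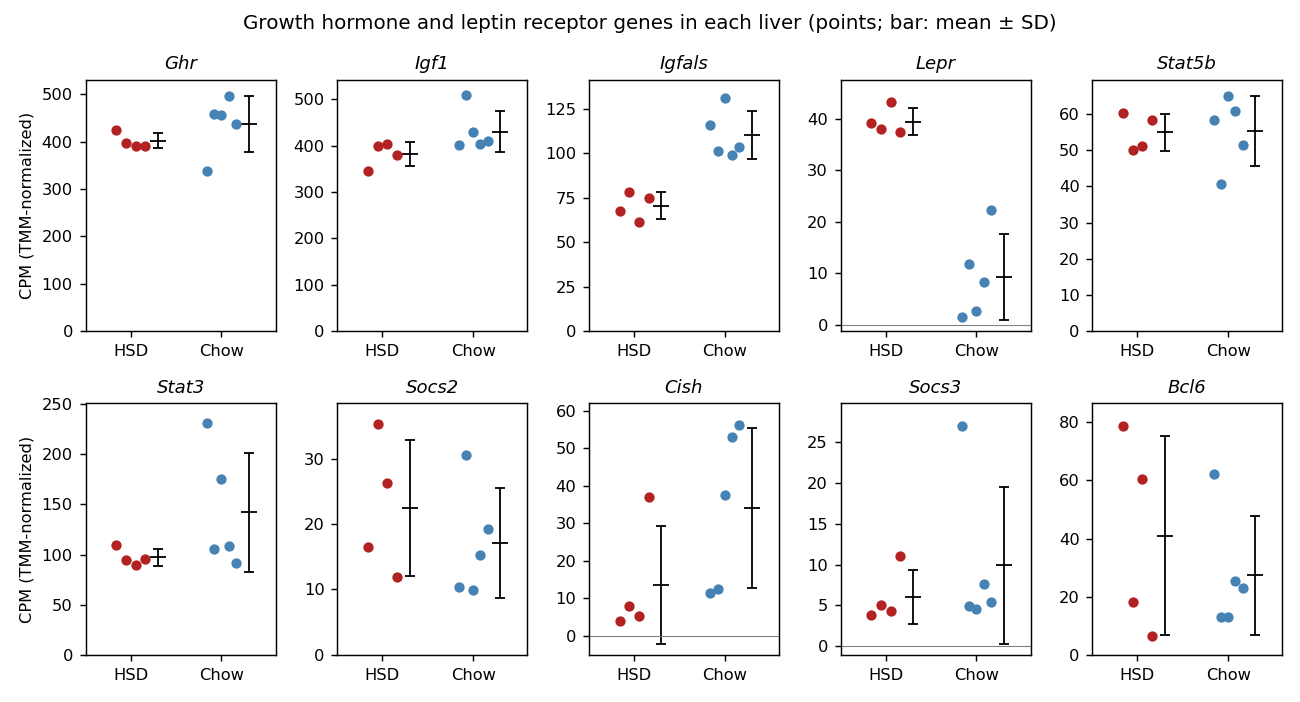
CPM of each gene (y axis, TMM-normalized) in each liver (points) of the HSD group (left) and the Chow group (right), with the mean and SD as a bar beside the points. *Lepr* lies at 37.4 to 43.1 CPM in HSD livers and 1.55 to 22.3 CPM in Chow livers, and *Igfals* at 61.4 to 78.2 CPM in HSD livers and 99.2 to 131 CPM in Chow livers, whereas the diets overlap in the other 8 genes.

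Set by length-corrected level (TPM), *Igf1* and *Ghr* were the most abundant of the 10 transcripts on both diets. In HSD livers *Igf1* averaged 373 ± 27.3 TPM and *Ghr* 255 ± 8.52 TPM (SD, n = 4), followed by *Igfals* with 48.2 ± 4.36 and *Stat3* with 32.5 ± 5.87 TPM. The ranges of these neighbours did not overlap among HSD livers. Below them came *Socs2* (17.4 TPM), *Bcl6* (16.1), *Stat5b* (14.4), *Lepr* (12.2), *Cish* (6.36) and *Socs3* (5.08 TPM), each overlapping the next in the order. In Chow livers the first 4 places were the same, with 470 ± 41.8 TPM for *Igf1*, 257 ± 45.9 for *Ghr*, 67.0 ± 6.68 for *Igfals* and 41.4 ± 15.5 for *Stat3* (SD, n = 5). *Lepr* was the last in Chow livers, at 2.63 ± 2.28 TPM, and overlapped its neighbour *Socs3* at 6.31 ± 5.73 TPM.

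The growth hormone receptor gene *Ghr* (chr15:3317760-3583492, minus strand) did not pass the test. It had 425, 398, 392 and 392 CPM (a TMM-scaled share of the library's counts) in HSD 1 to 4, and 337, 458, 456, 498 and 438 CPM in Chow 1 to 5. All HSD livers lay inside the Chow range, the lowest liver being Chow 1 and the highest Chow 4. For *Ghr*, HSD over Chow was -0.12 ± 0.11 on the log2 scale (SE, 95% interval -0.37 to 0.13, adjusted p = 0.558 with edgeR). The estimate kept its sign in 20 of 23 alternative settings. The leptin gene *Lep* itself, a hormone gene of fat tissue, was listed at 0 in every liver.

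*Igf1* (chr10:87858265-87937042, plus strand), the gene of the growth factor that mediates much of the action of growth hormone, had 345, 399, 403 and 380 CPM in HSD 1 to 4, and 401, 508, 429, 403 and 410 CPM in Chow 1 to 5. The diets overlapped at their edges, and Chow 2 stood above the other livers. For *Igf1*, HSD over Chow was -0.17 ± 0.10 on the log2 scale (SE, 95% interval -0.40 to 0.05, adjusted p = 0.336 with edgeR). In TPM the diets did not overlap, with 340 to 402 TPM in HSD livers and 413 to 531 TPM in Chow livers. On the log2(TPM + 1) scale the difference was -0.33 (adjusted p = 0.0654, limma), and -0.47 relative to the median of all genes, which was 0.14 on that scale.

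*Igfals* (chr17:24865997-24882010, plus strand) encodes the acid-labile subunit, which the liver secretes and which holds IGF1 in a long-lived complex in the blood. It fell in HSD livers, which had 67.4, 78.2, 61.4 and 74.7 CPM in HSD 1 to 4, against 116, 101, 131, 99.2 and 104 CPM in Chow 1 to 5. No HSD liver reached the lowest Chow liver, and Chow 3 was the highest of all. The means were 70.4 ± 7.49 CPM in HSD livers (SD, n = 4) and 110 ± 13.3 CPM in Chow livers (SD, n = 5), a fitted ratio of 0.640 or -0.64 ± 0.11 on the log2 scale (SE, 95% interval -0.88 to -0.41, edgeR adjusted p = 0.00657). None of its 31-base sequences occurs in another gene of GENCODE. With each liver left out in turn the adjusted p stayed at 0.00560 to 0.0291 (edgeR), while in the first series of library labels alone (HSD 1 and 2 against Chow 1 to 4) it was 0.149 with a log2 fold change of -0.62.

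Over the 9 livers, the genes whose log2 CPM was most like that of *Igfals* were *Oaf* (Pearson's r = 0.987), *Sars2* (0.980), a mitochondrial seryl-tRNA synthetase, and *Gss* (0.971), the glutathione synthetase. In all of them every HSD liver lay below every Chow liver, as in *Igfals*. They were chosen by likeness over livers of both diets, so a like split by diet follows from the choice and is no separate result. *Oaf* had 189 to 226 CPM in HSD livers and 243 to 287 CPM in Chow livers, and *Gss* had 33.0 to 40.0 CPM in HSD livers and 41.8 to 56.9 CPM in Chow livers.

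The leptin receptor gene *Lepr* (chr4:101717404-101815352, plus strand) had the largest estimate of the 10 genes with all 9 livers, and it was higher in HSD livers. It stood at 39.0, 38.01, 43.1 and 37.4 CPM in HSD 1 to 4, against 1.55, 11.7, 2.65, 8.25 and 22.3 CPM in Chow 1 to 5. The HSD livers were close to each other and all above the Chow livers, which were spread widely, with Chow 1 and Chow 3 lowest and Chow 5 highest. The lowest HSD value rested on 944 estimated counts and the lowest Chow value on 24.0. The means were 39.4 ± 2.58 CPM in HSD livers (SD, n = 4) and 9.30 ± 8.37 CPM in Chow livers (SD, n = 5), a fitted ratio of 4.34 or 2.12 ± 0.51 on the log2 scale (SE, 95% interval 0.999 to 3.23, edgeR adjusted p = 0.0318). The table gives 1 value for the gene, so the short and long receptor forms cannot be told apart here, and 3.92% of the 31-base sequences of the gene occur in other genes.

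The call of *Lepr* was lost without single livers. Its log2 fold change lay between 1.85 and 2.68 with each liver left out, and the adjusted p was above 0.05 without Chow 4 (0.0627) and without any of HSD 1 (0.0802), HSD 2 (0.0628), HSD 3 (0.0730) or HSD 4 (0.0727, all edgeR). Within the first series of library labels the HSD livers had 39.0 and 38.01 CPM, against 1.55 to 11.7 CPM in 4 Chow livers, and within the second series (HSD 3 and 4 and Chow 5) 43.1 and 37.4 CPM, against 22.3 CPM in the single Chow liver. With the series as a covariate the log2 fold change was 2.04 (adjusted p = 0.0347, edgeR), and in the first series alone it was 2.66 (adjusted p = 0.0928, edgeR). With the *Arntl* to *Dbp* ratio as a covariate it was 3.04 (adjusted p = 0.00272, edgeR).

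In bulk liver, fewer cells of a type and less RNA per cell cannot be told apart. The summed TPM of 9 markers of stellate cells and fibroblasts was 126 to 157 in HSD livers and 79.8 to 124 in Chow livers, without overlap. In CPM the sums overlapped, at 235 to 311 in HSD livers and 192 to 241 in Chow livers, and in TPM they overlapped without *Dcn*, the most abundant marker, at 37.6 to 51.7 in HSD livers and 24.8 to 39.7 in Chow livers (both added after the data were seen). With edgeR on all 9 livers 0 of the 9 markers passed the test. At an unadjusted p under 0.05 were 5 of them, against 2861 of all 12091 genes. Of the 9 estimates 8 were above 0, with a median log2 fold change of 0.352, and no marker was at 0 in all livers. DESeq2 called 2 of them higher in HSD livers, edgeR 3 with the *Arntl* to *Dbp* ratio as a covariate and 1 without Chow 5. Markers of endothelial cells summed to 83.5 to 102 TPM in HSD livers and 67.9 to 97.6 TPM in Chow livers. Over 5 cholangiocyte markers, all above 0, the median log2 fold change was 0.375, and 0 passed the test with edgeR. Over 9 macrophage markers, all below 0, it was -0.575, and 0 passed. It was -0.333 without Chow 1 and -0.395 without HSD 4. The mean log2 CPM of the macrophage markers, centred over the 9 livers, was -0.025, -0.069, 0.013 and -1.047 in HSD 1 to 4. In Chow livers this mean was -0.388 to 0.958, so HSD 1 to 3 lay inside the Chow range. The part of these cells in the difference of *Lepr* was not tested.

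The genes most like *Lepr* over the 9 livers were *Nrn1* (Pearson's r = 0.978), *Cavin1* (0.976), a gene of caveolae, and *Pfkfb3* (0.975), which encodes an enzyme that sets the level of a glycolytic activator. *Nrn1* was higher in HSD livers, with 223 to 267 CPM against 126 to 201 CPM in Chow livers (0.58 ± 0.13 SE on the log2 scale, edgeR adjusted p = 0.0234). *Cavin1* had a log2 fold change of 0.48 (adjusted p = 0.110) and *Pfkfb3* one of 0.97 (adjusted p = 0.160, edgeR), so neither passed the test. These genes too were chosen by likeness over livers of both diets, so higher values in HSD livers follow from the choice.

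**Figure D2:**
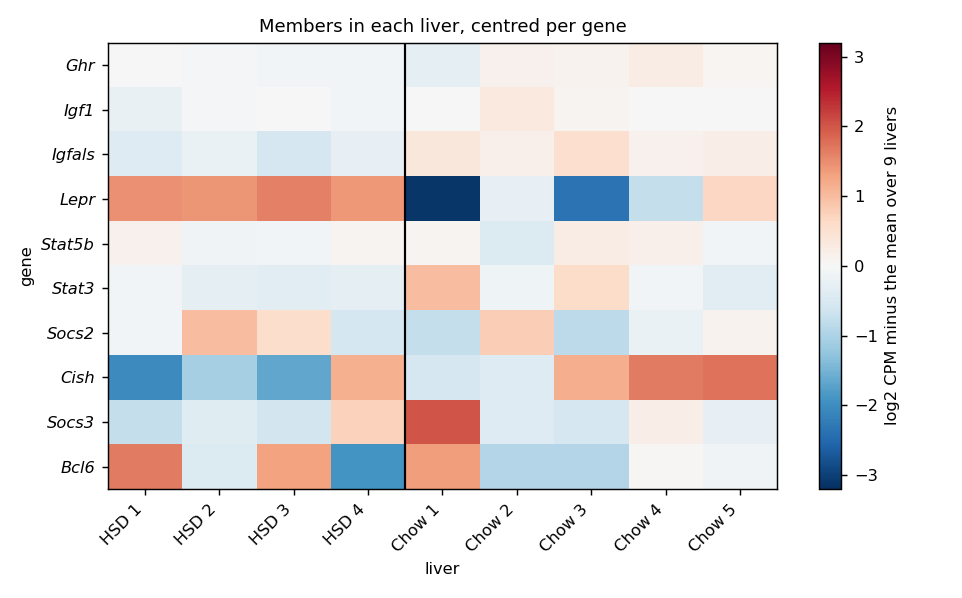
Log2 CPM of each gene (rows of the map) in each liver (columns, HSD livers left of the line, Chow livers right), minus the gene's mean over the 9 livers (colour scale). *Lepr* is above its mean in all HSD livers and far below it in Chow 1 and Chow 3, *Stat3* and *Socs3* are highest in Chow 1, and *Cish* and *Bcl6* vary within both diets.

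*Stat5b* (chr11:100780731-100850724, minus strand), the main transducer of growth hormone in liver, did not pass the test. It had 60.3, 50.1, 51.1 and 58.3 CPM in HSD 1 to 4, and 58.5, 40.6, 65.0, 61.0 and 51.4 CPM in Chow 1 to 5. The HSD livers lay within the Chow range, which ran from Chow 2 to Chow 3. For *Stat5b*, HSD over Chow was -0.01 ± 0.13 on the log2 scale (SE, 95% interval -0.29 to 0.27, adjusted p = 0.975 with edgeR), and its sign was kept in only 12 of 23 alternative settings. The neighbouring paralog *Stat5a* shares 15.1% of its 31-base sequences, so reads could be divided between them.

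*Stat3* (chr11:100885098-100939540, minus strand), the transducer of leptin and interleukin-6 type signals, had 109, 94.4, 90.0 and 95.6 CPM in HSD 1 to 4, and 231, 105, 175, 109 and 91.1 CPM in Chow 1 to 5. The HSD livers were alike, and the 3 Chow livers other than Chow 1 and Chow 3 were at a similar level. For *Stat3*, HSD over Chow was -0.55 ± 0.24 on the log2 scale (SE, 95% interval -1.07 to -0.03, unadjusted p = 0.0410, adjusted p = 0.189 with edgeR) and did not pass the test. It was -0.31 without Chow 1 (adjusted p = 0.294, edgeR), and -0.73 with the *Arntl* to *Dbp* ratio as a covariate, where it passed (adjusted p = 0.0198, edgeR).

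None of the feedback genes of growth hormone passed the test. *Socs2* (chr10:95385362-95417180, minus strand), whose product removes the growth hormone receptor, had 16.5, 35.3, 26.2 and 12.0 CPM in HSD 1 to 4, and 10.3, 30.5, 9.91, 15.3 and 19.2 CPM in Chow 1 to 5. Its diets overlapped over most of their range, with HSD 2 and Chow 2 the highest of each diet. For *Socs2*, HSD over Chow was 0.40 ± 0.36 on the log2 scale (SE, 95% interval -0.37 to 1.17, adjusted p = 0.539 with edgeR). Other genes hold 6.18% of its 31-base sequences.

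*Cish* (chr9:107296026-107302784, plus strand), another suppressor of cytokine signalling that STAT5 induces, had 3.96, 7.86, 5.19 and 37.0 CPM in HSD 1 to 4, and 11.5, 12.5, 37.5, 52.9 and 56.1 CPM in Chow 1 to 5. HSD 1, 2 and 3 were below every Chow liver, while HSD 4 stood among the higher Chow livers. For *Cish*, HSD over Chow was -1.31 ± 0.66 on the log2 scale (SE, 95% interval -2.75 to 0.13, unadjusted p = 0.0704, adjusted p = 0.254 with edgeR). Without HSD 4 alone it passed the test, with a log2 fold change of -2.59 (adjusted p = 0.0369, edgeR), and with any other liver left out it did not (up to 0.470). Annotated genes on the other strand cover 11.5% of its exon bases.

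*Socs3* (chr11:117966079-117970047, minus strand), the inhibitor that STAT3 induces, had 3.87, 5.01, 4.37 and 11.0 CPM in HSD 1 to 4, and 27.0, 4.90, 4.52, 7.65 and 5.46 CPM in Chow 1 to 5. Chow 1 was the highest liver and HSD 4 the next, and the others lay between 3.87 and 7.65 CPM. For *Socs3*, HSD over Chow was -0.68 ± 0.53 on the log2 scale (SE, 95% interval -1.84 to 0.48, adjusted p = 0.480 with edgeR). It turned to 0.11 without Chow 1 (adjusted p = 0.882, edgeR), the library with the high acute phase genes.

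*Bcl6* (chr16:23965052-23988852, minus strand), the repressor that opposes STAT5, had 78.8, 18.4, 60.5 and 6.50 CPM in HSD 1 to 4, and 62.3, 13.0, 13.0, 25.4 and 22.9 CPM in Chow 1 to 5. The HSD livers held both the highest and the lowest value, and among Chow livers only Chow 1 was above 25.4 CPM. For *Bcl6*, HSD over Chow was 0.59 ± 0.62 on the log2 scale (SE, 95% interval -0.77 to 1.94, adjusted p = 0.616 with edgeR). It was 1.13 without Chow 1 (adjusted p = 0.259) and 0.04 without HSD 1 (adjusted p = 0.980, edgeR).

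**Figure D3:**
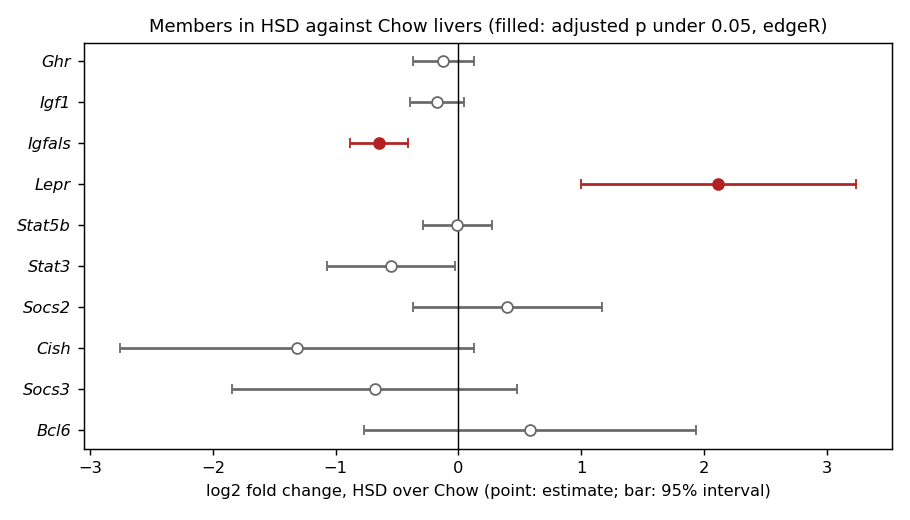
Log2 fold change of HSD over Chow (x axis) for each gene (y axis), with the estimate as a point and its 95% interval as a bar, filled where the adjusted p from edgeR was under 0.05. The intervals of *Ghr*, *Igf1* and *Stat5b* lie between -0.40 and 0.27, whereas those of *Lepr*, *Cish*, *Socs3* and *Bcl6* span more than 2 log2 units.

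*Cish*, a STAT5 target, and the repressor gene *Bcl6* were set side by side in each liver. HSD 4 had the highest *Cish* of its diet (37.0 CPM) and the lowest *Bcl6* of all livers (6.50 CPM), and HSD 1 had the lowest *Cish* (3.96 CPM) and the highest *Bcl6* (78.8 CPM). Over the 9 livers Pearson's r was -0.622 (exact permutation p = 0.0799, two-sided) and Spearman's rho -0.467 (exact permutation p = 0.213), which after adjustment over 45 pairs of genes became 0.391 and 0.531. Without Chow 5 and Chow 4, the livers farthest from the median of *Cish*, r was -0.814, and it was -0.527 within the 6 livers of the first series of library labels. This relation did not pass the test.

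*Socs2* and *Stat5b* had the strongest relation among the 28 pairs without *Lepr* and *Igfals*. Pearson's r was -0.818 (exact permutation p = 0.00486, adjusted p = 0.0728) and Spearman's rho -0.850 (exact permutation p = 0.00607, adjusted p = 0.137, two-sided). It was -0.785 without HSD 2 and Chow 2 and -0.818 within the first series of library labels. None of the 28 pairs passed after adjustment over the 45. The 17 pairs with *Lepr* or *Igfals* are given no pooled coefficient, since these genes divided the livers by diet. Of these 17, *Lepr* and *Stat3* were singled out after the data were seen. Within the Chow livers, those with the least *Lepr* (1.55 CPM in Chow 1 and 2.65 CPM in Chow 3) had the most *Stat3* (231 and 175 CPM). Chow 5, with the most *Lepr* (22.3 CPM), had the least *Stat3* (91.1 CPM). Chow 1 and Chow 3 are the livers that differed in their clock genes, and Chow 1 also in its acute phase genes. The relation within Chow livers was not tested.

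**Figure D4:**
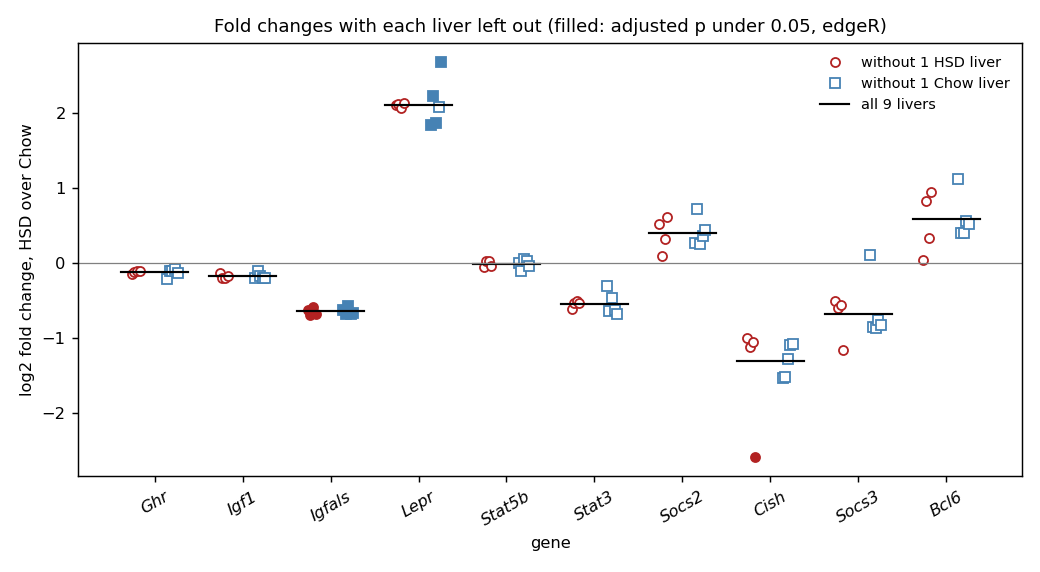
Log2 fold change of HSD over Chow (y axis) for each gene (x axis) with 1 HSD liver (circles) or 1 Chow liver (squares) left out, and with all 9 livers (line), filled where the adjusted p from edgeR was under 0.05. *Igfals* stays past the threshold in all 9 cases and *Lepr* in 4, *Cish* passes only without HSD 4, and *Socs3* changes sign without Chow 1.

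Among other genes of receptor signalling by JAK kinases and STATs, a single gene passed the test. Of 34 genes listed, 32 were tested, and 1 was higher and 0 were lower in HSD livers, against 3.44% and 3.23% of all genes tested. Such a count cannot be set apart from the shares of all genes. The median log2 fold change was -0.07. The gene that passed was *Jak2*, the kinase bound to both the growth hormone and the leptin receptor. It had 16.02 to 18.5 CPM in HSD livers and 12.5 to 14.5 CPM in Chow livers, without overlap, or 0.36 ± 0.09 on the log2 scale (SE, edgeR adjusted p = 0.0365). The call was lost without any of 8 livers (adjusted p from 0.0540 to 0.112) and held without Chow 3 (0.0465, edgeR).

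By role, 0 of 6 other receptors of the prolactin and interleukin-6 type families passed, with log2 fold changes of -0.34 to 0.16. The interleukin-6 receptor gene *Il6ra* had 47.3 to 55.6 CPM in HSD livers and 54.5 to 66.4 CPM in Chow livers (-0.17 on the log2 scale, edgeR adjusted p = 0.270). None of 4 other STAT genes (-0.31 to 0.10), 4 other SOCS genes (-0.06 to 0.55), 4 PIAS genes (-0.28 to 0.15), 4 phosphatase genes (-0.38 to 0.30) and 4 adaptor genes (-0.17 to 0.33) passed either. In the system of insulin-like growth factors, 13 genes besides *Igf1* and *Igfals* were listed, and 9 were tested, all of them receptor or binding protein genes. The ligand gene *Igf2* and the regulator genes *Pappa*, *Pappa2* and *Stc2* did not pass the filter. Of the 9, edgeR called 0 higher and 0 lower, with 2 at an unadjusted p under 0.05 and a median log2 fold change of 0.26. DESeq2 called 1 higher and 1 lower, and limma voom 0 higher and 1 lower.

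Genes that growth hormone controls in a sex-dependent way in mouse liver were also counted. Of 21 male-biased targets, all tested, 6 were lower and 0 higher in HSD livers, against 3.23% and 3.44% of all genes tested. The median log2 fold change was -0.62, and 17 of 21 estimates were below 0, against 6097 of 12091 over all genes. *Mup3*, *Mup20*, *Mup21* and *Slco1a1* had estimates above 0 (0.062, 0.007, 0.234 and 0.300) and did not pass the test. *Selenbp2*, which encodes a selenium-binding protein, had 75.1 to 135 CPM in HSD livers and 1314 to 2553 CPM in Chow livers, or -4.13 ± 0.27 on the log2 scale (SE, edgeR adjusted p = 2.78e-05). *Cyp7b1*, an oxysterol hydroxylase, had 51.7 to 77.3 TPM in HSD livers and 163 to 268 TPM in Chow livers, or -1.90 ± 0.19 on the log2 scale (SE, edgeR adjusted p = 0.000377). Both were without overlap between the diets.

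The serpin gene *Serpina1e* stood at -2.48 ± 0.19 and the major urinary protein gene *Mup12* at -1.88 ± 0.33 on the log2 scale (SE, edgeR adjusted p = 5.3e-05 and 0.00699), with *Mup12* at 62.6 to 121 CPM in HSD livers and 120 to 407 CPM in Chow livers. These genes have near-identical copies, as 59.3% of the 31-base sequences of *Selenbp2*, 54.2% of those of *Serpina1e* and 92.1% of those of *Mup12* occur in other genes. *Cyp7b1* shares none. With each liver left out, 5 to 8 of the 21 were lower, and without Chow 1 it was 8.

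Of 20 female-biased targets, 10 passed the filter, and 3 were higher and 1 lower in HSD livers, against 3.44% and 3.23% of all genes tested. On the log2 scale *Acot3*, an acyl-CoA thioesterase, differed by 2.64 ± 0.58 (SE, edgeR adjusted p = 0.0206), *Cyp17a1*, a steroid hydroxylase, by 1.94 ± 0.39 (adjusted p = 0.0139) and *Cyp39a1*, an oxysterol hydroxylase, by 1.25 ± 0.20 (adjusted p = 0.00523). In HSD 1 to 4 *Acot3* had 13.3, 17.8, 4.37 and 4.52 CPM, and in Chow livers 0.642 to 4.20 CPM, the highest in Chow 4. *Cyp17a1* stood at 63.9 to 91.8 CPM in HSD livers and 7.03 to 40.2 CPM in Chow livers. *Cyp2c69* went the other way, at 1.43 to 2.45 CPM in HSD livers and 4.91 to 13.0 CPM in Chow livers, or -2.07 ± 0.30 on the log2 scale (SE, edgeR adjusted p = 0.00325). It shares 64.9% of its 31-base sequences with other genes, and *Acot3* 23.1%. With each liver left out, 2 to 4 of the female-biased targets were higher, with 2 without HSD 1 or HSD 2.

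**Figure D5:**
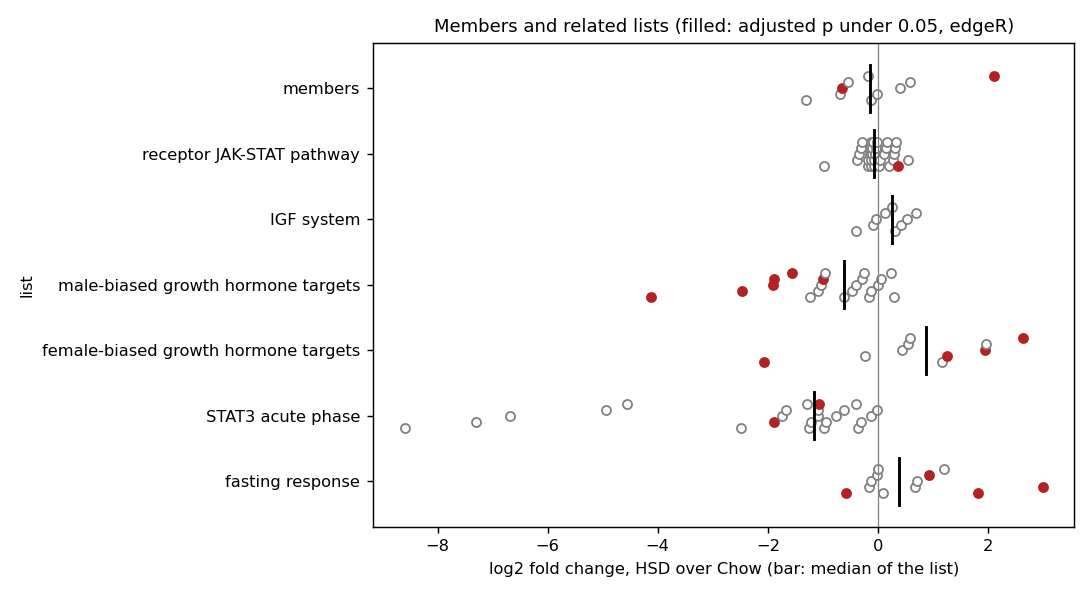
Log2 fold change of HSD over Chow (x axis) of every tested gene (points) in the 10 genes described here ("members") and in related lists (y axis), filled where the adjusted p from edgeR was under 0.05, with the median of each list as a bar. The male-biased targets and the acute phase genes lie mostly below 0, with medians of -0.62 and -1.16, and the other receptor signalling genes lie close to 0, with a median of -0.07.

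The acute phase genes, which STAT3 drives, stood highest in the single liver Chow 1. Of 24 genes tested, 2 were lower (against 3.23% of all genes tested) and 0 higher in HSD livers. All 24 estimates were below 0, and the median log2 fold change was -1.16. Without Chow 1 the median was -0.46, with 20 estimates below 0 and 4 genes lower. Serum amyloid A gene *Saa1* had 8.64 to 15.7 CPM in HSD livers and 12.1 to 8306 CPM in Chow livers (adjusted p = 0.0539, edgeR), and other genes hold 46.8% of its 31-base sequences. Its near copy *Saa2* had 3.69 to 7.07 CPM in HSD livers and 4.45 to 10112 CPM in Chow livers, and *Hp*, the haptoglobin gene, 1515 to 2038 CPM in HSD livers and 1836 to 19791 CPM in Chow livers. None of these passed the test, *Saa2* and *Hp* being at adjusted p = 0.0613 and 0.136 (edgeR).

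The acute phase genes that passed were *Saa4*, with 112 to 156 CPM in HSD livers and 222 to 1324 CPM in Chow livers, and *Itih3*, an inhibitor heavy chain, with 508 to 587 CPM in HSD livers and 769 to 2252 CPM in Chow livers. On the log2 scale they stood at -1.88 ± 0.50 and -1.06 ± 0.28 (SE, edgeR adjusted p = 0.0434 and 0.0441). *Stat3* and *Socs3* were also highest in Chow 1, at 231 and 27.0 CPM. The number of acute phase genes called ranged from 0 to 5 with each liver left out.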

How the data were processed

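RNA of 9 mouse livers (4 HSD, 5 Chow) was sequenced as poly-A libraries. The authors quantified reads with kallisto (version not given in the sources used here), and the submitters' processing notes name the build GRCm38. For every gene symbol the authors deposited an estimated count, not normalized, and a TPM value, scaled by the authors within each library, which sum to 923061 to 945110 over the symbols listed. Columns of other samples numbered 0. No pair of libraries of 1 diet was a repeat, since the chi-square per degree of freedom between their counts was 15.2 to 262 over 16 pairs.

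Estimated counts were rounded, filtered (filterByExpr with its minimum count of 10 and minimum total of 15), given TMM factors and compared by the quasi-likelihood test of edgeR 4.0.16 in R 4.3.3, with diet as the single factor, 7 residual degrees of freedom and Benjamini-Hochberg adjustment over 12091 genes. Standard errors and 95% intervals were derived from the test statistic. CPM are TMM-normalized, and log2 CPM have a prior count of 2. The script was tested on simulated data. The biological coefficient of variation was 0.187, which limits small changes in so few livers. Intervals do not cover errors in dividing reads among gene copies. Alternatives were DESeq2 1.42.0, limma 3.58.1 (voom, or log2(TPM + 1) and log2(TPM + 0.1) with a mean TPM of at least 1 or all genes), other scaling and filters, the series of library labels, a block of replicate numbers, a clock covariate, halved counts (99.1% of the whole values are even), an adjusted p under 0.01 and each liver left out.

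The 10 genes and all lists were chosen with earlier results of these data known, so lists are described by counts and medians without a test. Besides the 10 genes, the rule named genes past the test in the receptor and insulin-like growth factor lists, in each other list the up to 4 called genes that changed most, 8 fixed genes and, for each of the 10 genes past the test, the 3 genes most correlated with it (mean log2 CPM of at least 1). Positions and 31-base sequences are from GENCODE for GRCm38, promoters from RefSeq for GRCm38.p6.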

Additional observations from a re-analysis of the deposited data

Results flagged for a closer look

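In the Chow group, *Igf1* in Chow 2 lay far from the other Chow livers, 0.31 log2 CPM above their mean (8.99 against 8.65 to 8.75). The mean of the acute phase genes in Chow 1 lay 3.12 above that of the other Chow livers (2.98 against -0.46 to 0.36, log2 CPM centred over the 9 livers), and that of 5 cholangiocyte markers in the same liver lay 0.85 above (0.45 against -0.52 to -0.32). The mean of 9 macrophage markers in HSD 4, the liver with the highest *Cish* of its diet, lay -1.02 from that of the other HSD livers (-1.05 against -0.07 to 0.01). In Chow 2 the mean of 5 red blood cell markers lay 2.12 above the other Chow livers (1.80 against -0.68 to -0.04). In all, 5 of 50 groups (10%) held such a liver, and chance sets a liver apart in about 1 in 20 groups. The part of these cells in the levels of *Igf1* and *Cish* was not tested.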

How the results depend on the processing

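Over 230 combinations of a gene of the 10 with an alternative, 220 kept their direction where called and their side of the threshold, 8 lost the call, 2 gained it and 0 were reversed. *Igfals* passed in 22 of 23 alternatives and *Lepr* in 16 of 23. Below, the numbers are of genes higher or lower in HSD livers, and the cause of each shift was not tested. DESeq2 called 647 genes higher and 690 lower, with 1 higher and 1 lower in the insulin-like growth factor list and 10 male-biased targets lower, and limma voom 1 lower in the insulin-like growth factor list and 1 acute phase gene lower. With library totals 254 genes were lower. Without the filter 0 other receptor signalling genes were higher and 4 acute phase genes lower. With limma on log2(TPM + 1) and on log2(TPM + 0.1), 101 genes were lower each time, with 0 acute phase and 0 fasting genes lower, and on log2(TPM + 1) without a filter 243 were higher and 51 lower, with 0 receptor signalling genes higher and 3 male-biased, 0 acute phase and 0 fasting genes lower. With the label series as a covariate, 0 receptor signalling genes were higher and 0 acute phase and 0 fasting genes lower. In the first label series alone 15 genes were higher and 19 lower, with 0 of the 10 genes higher and 0 lower, 0 receptor signalling genes higher, 3 male-biased targets lower, 0 female-biased targets higher and 0 lower, 0 acute phase genes lower, and 1 fasting gene higher and 0 lower. With the clock covariate 2 of the 10 genes and 8 acute phase genes were lower, and 0 receptor signalling genes and 1 insulin-like growth factor gene higher. At an adjusted p under 0.01, 97 genes were higher and 112 lower, with 0 of the 10 genes, 0 receptor signalling genes and 1 female-biased target higher, and 0 acute phase and 0 fasting genes lower. With each liver left out, 153 to 475 genes were higher and 149 to 493 lower (fewest without HSD 1), 0 to 1 of the 10 genes higher and 1 to 2 lower, 0 to 1 receptor signalling genes higher and 0 to 1 lower, 0 to 1 insulin-like growth factor genes lower, 0 to 5 acute phase genes lower and 0 to 1 fasting genes lower. In CPM, which are not per length, 15 of 20 mean levels moved by more than 1 SD from their TPM.

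The replicate number as a block (replicates 1 to 4 of each diet, Chow 5 dropped) gave 215 genes higher and 213 lower, 1 of the 10 genes higher and 1 lower, 0 receptor signalling genes higher and 0 fasting genes lower. Samples of the same number share only the number, as their deviations from the diet means correlated at -0.061 to 0.066 and 1 of 4 HSD livers correlated best with the Chow liver of its number.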

Other observations

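Genes known to respond to fasting were listed because several of the 10 genes also respond to it. Among 12 tested, 3 were higher and 1 lower in HSD livers, against 3.44% and 3.23% of all genes tested. Their median log2 fold change was 0.38. *Fgf21*, a liver hormone, had 2.86 to 7.86 CPM in HSD livers and 0.300 to 0.866 CPM in Chow livers (2.99 ± 0.40 SE on the log2 scale, edgeR adjusted p = 0.00199). *Pdk4*, which restrains pyruvate oxidation, had 4.67 to 6.76 CPM in HSD livers and 1.12 to 2.31 CPM in Chow livers (1.82 ± 0.23 SE, edgeR adjusted p = 0.00167). *Ppargc1a*, a coactivator, had a log2 fold change of 0.93 (adjusted p = 0.00955), and *Creb3l3*, a transcription factor, one of -0.58 (adjusted p = 0.0314, edgeR). The sources used here do not state whether the mice were fasted before the livers were taken.

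Of 14 clock genes, edgeR called 0 higher and 0 lower, with 3 at an unadjusted p under 0.05 and a median log2 fold change of 0.01. In other settings 1 or 2 clock genes were higher, with 2 by DESeq2, with library totals, with the clock covariate and by limma on filtered TPM, 1 with the label series as a covariate, and 1 without each of Chow 1, Chow 2 and Chow 3. *Arntl* had 4.20 to 9.15 CPM in HSD livers and 1.35 to 9.24 CPM in Chow livers (adjusted p = 0.552), and *Dbp* 35.1 to 96.2 CPM in HSD livers and 27.4 to 129 CPM in Chow livers (adjusted p = 0.536, edgeR). Markers of red blood cells held 1 lower gene, *Alas2*, of 5 tested, against 3.23% of all genes tested. The other 4, all globin genes, did not pass (adjusted p from 0.541 to 0.862, edgeR). The median log2 fold change of the 5 was -0.534, and without Chow 2 it was 0.476 with 4 estimates above 0. With edgeR, 0 of the 9 macrophage, 8 endothelial, 9 stellate cell and fibroblast, 5 cholangiocyte, 3 leukocyte and 1 adipocyte marker tested passed. At an unadjusted p under 0.05 were 4, 1, 5, 2, 1 and 0 of them, in this order. Besides the stellate cell and fibroblast markers given above, DESeq2 called 1 cholangiocyte marker higher and 1 leukocyte marker lower, and edgeR called 1 leukocyte marker lower without Chow 4, 1 macrophage marker lower with the replicate block and 1 endothelial marker higher without Chow 2.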
